A study of Homo sapiens with 12 samples.

Results

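The 10 genes of early inflammation followed across 4 treatment groups of ML-2 cells were the chemokines CCL2, CCL3, CCL5, CXCL2, CXCL8 and CXCL10, the cytokine IL1B, the adhesion receptor gene ICAM1, the early response gene IER3 and the kinase gene MAP3K8. They were chosen by symbol, with earlier results of these data known. Every probe set annotated to exactly 1 of these 10 symbols was taken. That gave 18 probe sets for 9 genes, out of 41091 probe sets with 1 symbol and 54675 on the array. CCL3 had no probe set of its own, since its single probe set is shared with near-identical copies, and is not analysed here as a gene. A probe set entered the test when it exceeded the median of its array on at least 3 arrays, which 14 of the 18 probe sets and 8 of the 9 genes did. CXCL10 was below that limit on all 12 arrays.

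ML-2 is a human acute myeloid leukaemia line with monocytic features. Cells received solvent only, SGI-110 (guadecitabine, a DNA hypomethylating agent that releases decitabine) at 2 µM for 33 h, ASTX660 (an antagonist of inhibitor of apoptosis proteins) at 5 µM for 9 h, or the combination, in which 2 µM SGI-110 acted for 24 h before 5 µM ASTX660 was added for 9 h. Solvent stood in for each drug left out, and all groups came from the same line in the same medium. The sources used here do not give whether SGI-110 stayed on the cells during the last 9 h of the combination. Each group held 3 arrays, one from each of 3 experiments that the study calls independent. The numbers 2, 9 and 13 in the sample titles recur in every group and are read here as experiment numbers. Whether same-numbered arrays came from 1 culture is not stated.

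Chemokines are small secreted proteins that draw leukocytes along a gradient by binding G protein-coupled receptors. The CC family (CCL2, CCL3, CCL5) mainly acts on monocytes and lymphocytes, and the CXC family holds neutrophil attractants (CXCL2, CXCL8) and interferon-induced T cell attractants (CXCL10). Many of these genes are switched on within a short time of a stimulus by NF-kB and AP-1, and inhibitor of apoptosis proteins take part in the receptor complexes that control NF-kB.

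The regulatory letters in front of 4 of these genes are shown so that a gene's level can be set beside the motif that NF-kB is known to bind and beside its CG content, the substrate of DNA methylation. Of the 10 genes 7 had an entry in the RefSeq promoter table (build GRCh38.p14), and CCL2, CCL5 and IER3 had none. Each line gives the 250 bases before an annotated start site, 5′ to 3′ on the gene's strand, and capitals mark matches on either strand to the kappa-B type motif GGNNNTTCC. CXCL8 lies at chr4:73740319-73740568 on the + strand, CXCL2 at chr4:74099196-74099445 on the - strand, CXCL10 at chr4:76023498-76023747 on the - strand and the most upstream of 3 MAP3K8 start sites at chr10:30433771-30434020 on the + strand.
CXCL8: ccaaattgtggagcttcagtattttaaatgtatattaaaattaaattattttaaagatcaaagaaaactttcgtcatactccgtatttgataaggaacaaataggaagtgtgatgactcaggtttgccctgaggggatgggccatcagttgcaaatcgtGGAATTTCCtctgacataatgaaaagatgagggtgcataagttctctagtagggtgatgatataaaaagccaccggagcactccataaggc
CXCL2: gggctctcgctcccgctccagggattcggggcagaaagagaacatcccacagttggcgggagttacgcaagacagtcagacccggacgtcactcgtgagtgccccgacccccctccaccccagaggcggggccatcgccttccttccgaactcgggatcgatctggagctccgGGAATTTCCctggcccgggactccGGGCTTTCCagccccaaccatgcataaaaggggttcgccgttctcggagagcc
CXCL10: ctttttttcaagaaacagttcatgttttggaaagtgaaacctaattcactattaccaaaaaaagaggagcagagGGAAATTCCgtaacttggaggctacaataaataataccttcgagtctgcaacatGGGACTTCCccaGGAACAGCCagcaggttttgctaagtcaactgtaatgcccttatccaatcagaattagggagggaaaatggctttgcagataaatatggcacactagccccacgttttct
MAP3K8: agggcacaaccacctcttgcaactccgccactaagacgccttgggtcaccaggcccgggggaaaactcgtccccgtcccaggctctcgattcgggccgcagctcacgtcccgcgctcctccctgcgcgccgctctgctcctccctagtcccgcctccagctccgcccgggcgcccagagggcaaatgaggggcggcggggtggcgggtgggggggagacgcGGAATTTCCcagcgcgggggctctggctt

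The motif GGNNNTTCC was present in 17.1% of 35116 promoter windows of this length. It occurred once for CXCL8 (bases -91 to -83 before the start site), in 2 places for CXCL2, in 3 for CXCL10, once for ICAM1 and once before each of the 3 MAP3K8 start sites, where the first 2 windows overlap and share 1 match. None of the windows of IL1B or CCL3 held it. CXCL8 also held the AP-1 type motif TGANTCA at bases -137 to -131, found in 6.57% of windows, and a TATAAA box at -31 to -26, found in 10.7%. Counts of CG in the 250 bases were 4 for CXCL8, 3 for CXCL10 and 1 for IL1B, below the median of 11 over all windows. They were 20 for CXCL2, 23 for ICAM1 and 21 to 25 for MAP3K8, above it. Motif matches are descriptions of letters, and the motif GGNNNTTCC was chosen after seeing the data. The bearing of motifs or CG counts on a gene's level was not tested.

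CCL2, the monocyte attractant that signals through CCR2, was highest in both groups that had SGI-110. On solvent arrays 2, 9 and 13 its log2 intensity was 7.95, 7.96 and 9.17, and on SGI-110 arrays 10.05, 9.79 and 11.06. On ASTX660 arrays it was 8.25, 7.80 and 9.01, and on combination arrays 10.26, 9.70 and 10.99. Every array with SGI-110 was above every array without it, and array 13 was the highest of its group in all 4 groups. Means were 8.36 ± 0.70 in solvent, 10.30 ± 0.67 in SGI-110, 8.35 ± 0.61 in ASTX660 and 10.32 ± 0.65 in the combination (SD, n = 3 each).

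The CCL2 change was nearly the same inside each experiment number even though the starting level was not. With SGI-110 alone the log2 difference from the same-numbered solvent array was 2.09, 1.83 and 1.89 for numbers 2, 9 and 13, and the combination exceeded the same-numbered ASTX660 array by 2.01, 1.90 and 1.98. Across the group means the rise with SGI-110 was 1.94 (SE 0.411, 3.83-fold, limma adjusted p = 0.00594, Benjamini-Hochberg over 12689 genes), the 10th largest of all tested genes. With the experiment number as a block the SE fell to 0.0808 (adjusted p = 1.03e-11). The call was lost when the 4 arrays numbered 2 were left out together (1.86, adjusted p = 0.116).

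CXCL8, the neutrophil attractant also called interleukin-8, rose with SGI-110 on both of its probe sets. The brighter one, 202859_x_at, read 9.58, 9.11 and 9.55 in solvent, 10.33, 9.95 and 10.32 in SGI-110, 9.52, 9.06 and 9.46 in ASTX660 and 9.97, 10.11 and 10.38 in the combination (arrays 2, 9 and 13). All 6 arrays with SGI-110 were above all 6 without it; the closest were solvent array 2 and SGI-110 array 9. The difference between SGI-110 and solvent was 0.79 (SE 0.152, 1.72-fold, limma adjusted p = 0.00331). The second probe set, 211506_s_at, gave 1.00 (SE 0.185, 2.00-fold, limma adjusted p = 0.00341 over 23660 probe sets). Inside experiment numbers 2, 9 and 13 it gave 0.97, 0.90 and 1.12. An x in a probe set's suffix means that some of its probes can read other transcripts as well, and the probe set without that suffix shows the same direction.

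IER3, an early response gene known for modulating cell survival and NF-kB and ERK signalling, moved from near the array median to well above it. Its log2 intensity was 5.41, 4.88 and 4.99 on the solvent arrays and 6.61, 6.47 and 6.97 on the SGI-110 arrays numbered 2, 9 and 13. ASTX660 arrays read 5.10, 5.00 and 5.16, and combination arrays 6.71, 6.39 and 6.91. The gap between the highest array without SGI-110 and the lowest with it was wide compared with the spread inside any group. The rise was 1.59 (SE 0.159, 3.01-fold, limma adjusted p = 2.74e-05), the 23rd largest of all tested genes. By experiment number it was 1.20, 1.59 and 1.98, so it varied more than that of CCL2.

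MAP3K8, a kinase that activates the ERK pathway and is held in check by the NF-kB precursor protein p105, was dim and gave the least secure call. Array by array 205027_s_at read 4.36, 4.03 and 3.78 in solvent, 5.10, 4.92 and 4.38 in SGI-110, 4.91, 4.45 and 4.004 in ASTX660 and 5.44, 5.32 and 4.86 in the combination. Array 13 was the lowest of its group in all 4 groups, the opposite of CCL2. Only 6 of the 12 arrays were above the array median, 5 of them with SGI-110 and none of them solvent, so the gene entered the test through the groups in which it was high. The group means ran in the order solvent (4.06 ± 0.29), ASTX660 (4.46 ± 0.45), SGI-110 (4.80 ± 0.38) and combination (5.21 ± 0.31; SD, n = 3 each).

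Against solvent, MAP3K8 rose by 0.74 with SGI-110 (SE 0.236, 1.67-fold, limma adjusted p = 0.0475) and by 1.15 with the combination (SE 0.236, 2.22-fold, adjusted p = 0.00434). The first call was lost when any of 4 single arrays was left out: solvent 9 (adjusted p = 0.118), solvent 13 (0.162), SGI-110 2 (0.184) and SGI-110 9 (0.129), and in the fit over all probe sets (0.0591). It was also lost with no brightness filter (0.0522), with no intensity trend in limma (0.0697) and without the arrays numbered 2 (0.0987) or 9 (0.297). With the experiment number as a block it was adjusted p = 4.05e-05. The dimmer probe set 235421_at stayed under the brightness limit on all arrays and had means of 3.60, 3.83, 3.56 and 4.04 in solvent, SGI-110, ASTX660 and combination.

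**Figure D1:**
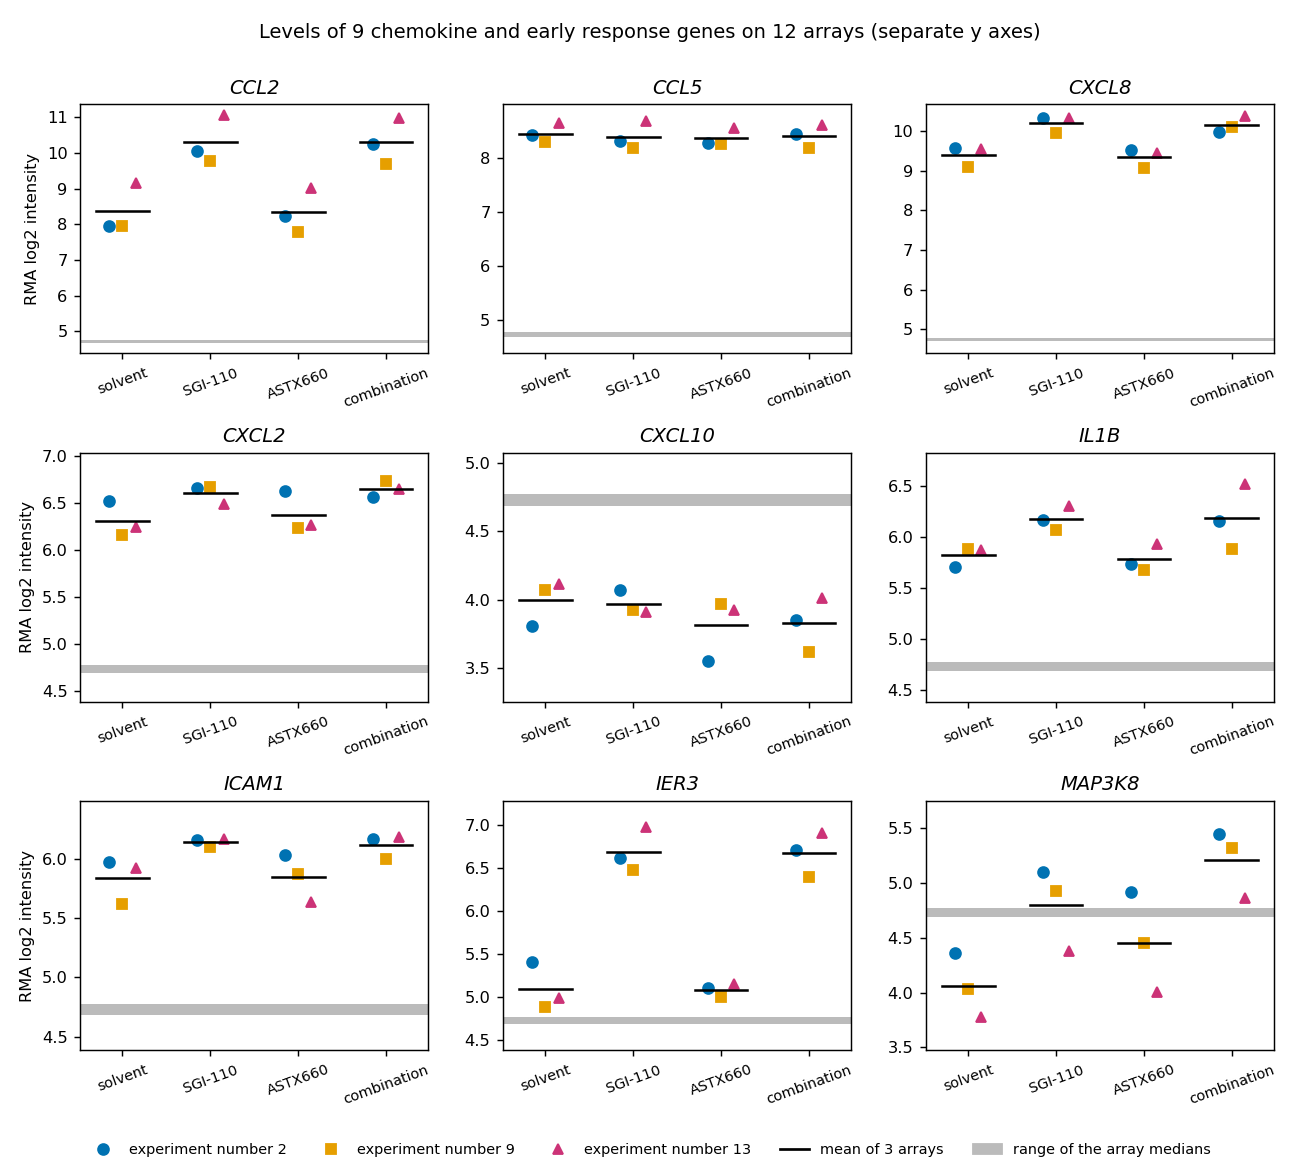
RMA log2 intensity (y axis, a separate range per gene) of 9 genes on 12 arrays in 4 treatment groups (x axis), with 1 point per array, shape and colour for the experiment number, a black line for the mean of 3 arrays and a grey band for the range of array medians (4.69 to 4.77). CCL2, CXCL8 and IER3 are higher on all 6 arrays with SGI-110 than on the other 6, CCL5 overlaps in all groups, and CXCL10 stays below the grey band.

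IL1B encodes the cytokine interleukin-1 beta, which is made as a precursor and cut by caspase-1 in the inflammasome. Its 2 probe sets did not give the same call. The brighter one, 205067_at, read 5.71, 5.88 and 5.87 in solvent and 6.17, 6.06 and 6.30 in SGI-110, without overlap, and the difference of 0.35 did not pass (SE 0.134, 95% interval 0.07 to 0.64, limma adjusted p = 0.0929). It passed with the experiment number as a block (adjusted p = 0.0141). The dimmer one, 39402_at, went from 5.05, 4.87 and 4.87 to 5.44, 5.39 and 5.83. It rose by 0.62 (SE 0.133, 1.54-fold, limma adjusted p = 0.00816 in the fit over probe sets).

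CXCL2, a neutrophil attractant close in sequence to CXCL1 and CXCL3, was read by 1 probe set above the limit, which can cross-read relatives. On arrays 2, 9 and 13 it stood at 6.52, 6.16 and 6.25 in solvent, 6.66, 6.67 and 6.48 in SGI-110, 6.63, 6.23 and 6.26 in ASTX660 and 6.56, 6.73 and 6.65 in the combination. SGI-110 and solvent arrays overlapped. The difference of 0.30 did not pass (95% interval 0.05 to 0.55, limma adjusted p = 0.106) but passed with the block (0.0356), with array weights (0.0386) or without solvent array 2 (0.0481). Its other 2 probe sets, 1569203_at and 230101_at, were under the limit on all arrays, with solvent means of 3.07 and 2.78.

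ICAM1, the endothelial and leukocyte receptor that integrins such as LFA-1 bind, had 3 probe sets that differed among themselves. The brightest, 202637_s_at, read 5.97, 5.62 and 5.93 in solvent and 6.16, 6.10 and 6.17 in SGI-110. These groups did not overlap, and the difference of 0.30 did not pass (95% interval 0.06 to 0.55, limma adjusted p = 0.085, or 0.0294 with the block). For 202638_s_at the difference was 0.36 (adjusted p = 0.172 over probe sets) and for 215485_s_at it was -0.02 (adjusted p = 0.936, 95% interval -0.19 to 0.16).

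CCL5, an attractant of T cells and monocytes, was the tested member with the smallest SGI-110 difference. The 3 probe sets gave SGI-110 differences of -0.06, -0.04 and 0.08, with limma adjusted p from 0.779 to 0.911 over probe sets. For 1555759_a_at the solvent arrays read 8.43, 8.30 and 8.65 and the SGI-110 arrays 8.32, 8.18 and 8.70. Array 13 was the highest of its group in all 4 groups, as for CCL2, and the interval of the SGI-110 difference ran from -0.36 to 0.24. CXCL10 ranged from 3.55 to 4.11 over all 12 arrays, below every array median, so these arrays give it a bound and no direction.

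**Figure D2:**
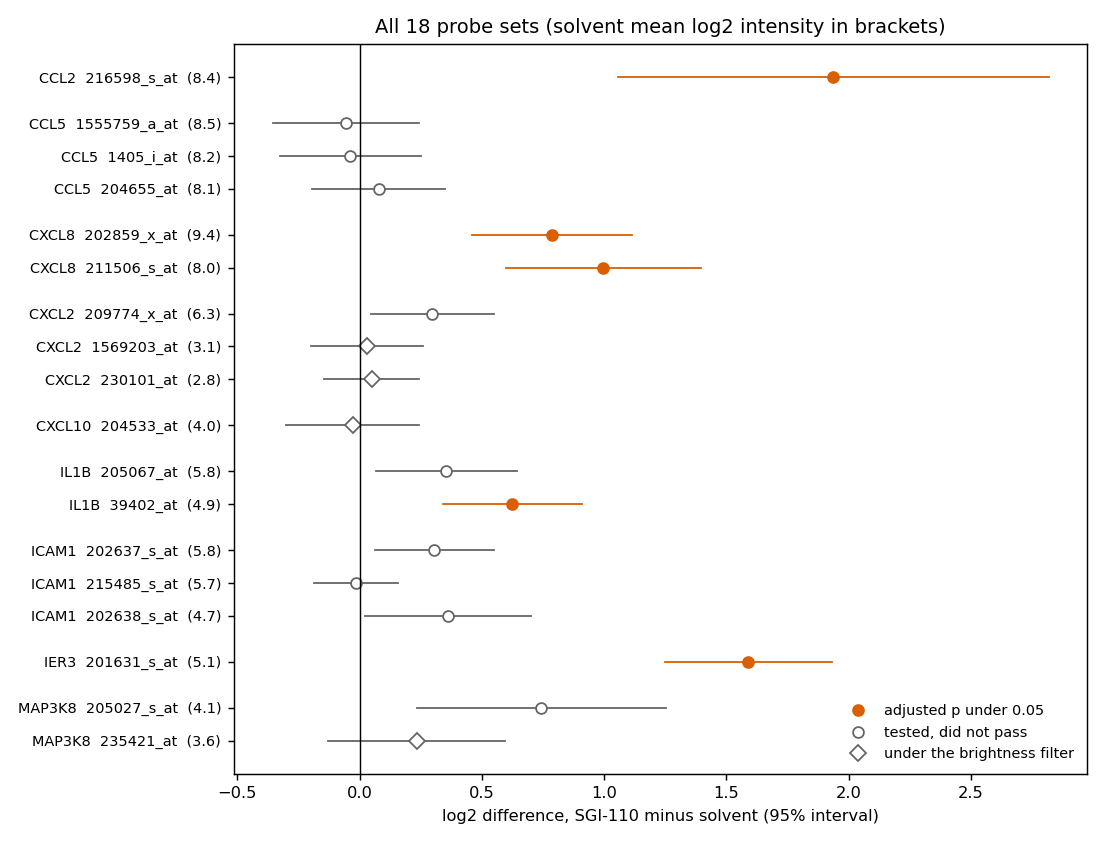
Log2 difference between SGI-110 and solvent (x axis, point with 95% interval) for all 18 probe sets (y axis, grouped by gene, with the solvent mean log2 intensity in brackets), from the fits over probe sets. CCL2, IER3, both CXCL8 probe sets and 1 of 2 IL1B probe sets pass an adjusted p of 0.05, and the 4 diamonds were under the brightness limit.

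Counted together, 4 of the 8 tested genes (CCL2, CXCL8, IER3 and MAP3K8) were higher with SGI-110 and 0 were lower. Of all 12689 tested genes 15.4% were called, 9.5% higher and 5.9% lower. MAP3K8 passed the filter without any solvent array, and the members were chosen with earlier results of these data known. The counts here and in the comparisons below, set beside the shares over all genes, are therefore descriptions. Arrays did not overlap for 6 of the 8, against 36.2% of all genes. Among the 14 tested probe sets 5 were higher and 0 lower, where 6.96% of 23660 probe sets were called higher. With the experiment number as a block the same test called 7 of 8 genes and 10 of 14 probe sets, all higher, where 25.2% of all genes and 20.3% of all probe sets were called in either direction.

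ASTX660 alone moved none of the 8 past the test. Its differences from solvent were -0.01 for CCL2 (95% interval -0.89 to 0.87), -0.07 for CXCL8 (-0.39 to 0.26) and -0.01 for IER3 (-0.35 to 0.33). They were -0.04 for IL1B, 0.07 for CXCL2, 0.01 for ICAM1 and -0.09 for CCL5. The dimmer IL1B probe set 39402_at gave -0.16 (95% interval -0.45 to 0.12, limma adjusted p = 0.784 over probe sets). Inside numbers 2, 9 and 13 that probe set gave -0.31, -0.09 and -0.09. MAP3K8 had the largest at 0.40 (95% interval -0.11 to 0.90, limma adjusted p = 0.748, or 0.211 with the block), with 0.55, 0.42 and 0.23 inside numbers 2, 9 and 13. This was the 24th largest value of all tested genes, with an SE of 0.236 where the median SE was 0.085. The MAP3K8 solvent arrays and ASTX660 arrays 9 and 13 were below the array medians. The dimmer MAP3K8 probe set 235421_at, under the brightness limit, gave -0.04, with -0.25, 0.03 and 0.11 inside the same numbers. No member had an unadjusted p under 0.05 in this comparison (limma, 0 of 8, lowest 0.115), where 7.05% of all genes did. Over all genes 0% were called, higher or lower, and 0.00788% with the block, none of them a member.

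With the combination the same 4 genes were called higher than solvent, and 0 were lower, where 17.9% of all genes were called, 12.1% higher and 5.85% lower. Of the 14 member probe sets 5 were higher, against 9.52% of all probe sets. Groups did not overlap for 6 of 8 members and 38.4% of all genes. MAP3K8 is in this count through the same filter as above, so the count is a description. The solvent arrays are shared with the SGI-110 comparison, so the values are set side by side. CCL2 differed by 1.96 (limma adjusted p = 0.00498), IER3 by 1.58 (2.41e-05), CXCL8 by 0.74 (0.00425) and MAP3K8 by 1.15. Those that did not pass were IL1B at 0.37 (adjusted p = 0.0735), CXCL2 at 0.34 (0.0593), ICAM1 at 0.28 (0.101) and CCL5 at -0.04 (0.871). Blocked, IL1B (0.0108), CXCL2 (0.0165) and ICAM1 (0.0409) passed, which made 7 of 8 where 28.6% of all genes were called, and 8 of 14 probe sets where 23.8% of all were. The CCL2 call was lost without the 4 arrays numbered 2 (1.78, adjusted p = 0.117) and the MAP3K8 call without the 4 arrays numbered 9 (adjusted p = 0.0805).

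SGI-110 pretreatment in cells given ASTX660 was read from the combination against ASTX660, which shares no array with the SGI-110 and solvent comparison. Both comparisons draw on experiment numbers 2, 9 and 13 and on a shared estimate of the spread, so they are not independent. CCL2 was higher by 1.96 (limma adjusted p = 0.00561), IER3 by 1.59 (3.46e-05) and CXCL8 by 0.81 (0.00298), with no overlap between groups. Without the 4 arrays numbered 2 the CCL2 call was lost (1.94, adjusted p = 0.101). MAP3K8 was higher by 0.75 (adjusted p = 0.0439), with ASTX660 array 2 (4.91) above combination array 13 (4.86). Its call was lost without ASTX660 array 9 (0.101), ASTX660 array 13 (0.159), combination array 2 (0.156) or combination array 9 (0.107). Called higher were 4 of 8 members and none was lower, where 16.1% of all genes were called, 8.37% higher and 7.69% lower. That count again holds MAP3K8, which entered the test mainly through arrays with SGI-110. Groups did not overlap for 3 of 8 members and 29.4% of all genes. Among member probe sets 5 of 14 were higher, against 6.61% of all probe sets. IL1B stood at 0.40 (adjusted p = 0.0552), and its probe set 39402_at rose by 0.58 (adjusted p = 0.0114 over probe sets), as it did with SGI-110 alone. In the combination against solvent that probe set did not pass (0.42, adjusted p = 0.0513 over probe sets).

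Adding ASTX660 to SGI-110 moved no member past the test. Combination minus SGI-110 was 0.02 for CCL2 (95% interval -0.86 to 0.90), -0.04 for CXCL8 (-0.37 to 0.28), -0.01 for IER3 (-0.35 to 0.33) and 0.01 for IL1B (-0.28 to 0.30). The dimmer IL1B probe set 39402_at gave -0.21 (95% interval -0.49 to 0.08) and did not pass. Inside numbers 2, 9 and 13 that probe set gave -0.22, -0.21 and -0.19. MAP3K8 again had the largest value, 0.41 (95% interval -0.10 to 0.91, limma adjusted p = 1.00, or 0.598 with the block), with 0.34, 0.39 and 0.48 inside numbers 2, 9 and 13. It was the 4th largest value of all tested genes, again with an SE of 0.236 where the median SE was 0.085. The dimmer probe set 235421_at gave 0.21 (95% interval -0.16 to 0.57). Over all genes 0% were called, and 0.0788% with the block, none of them a member. No member had an unadjusted p under 0.05 where 2.92% of all genes had.

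The interaction, which asks whether the change with 1 drug depends on the other, moved none of the 8 members past the test. It ran from -0.03 for ICAM1 (95% interval -0.37 to 0.31) to 0.10 for CCL5 (-0.32 to 0.52). For CCL2 it was 0.03 (-1.22 to 1.27), for CXCL8 0.02 (-0.44 to 0.48), for IER3 -0.00 (-0.49 to 0.48) and for MAP3K8 0.01 (-0.71 to 0.73). The lowest unadjusted p among them was 0.61 (limma, 0 of 8 and 0% of all genes called, 1.61% of genes under 0.05 unadjusted).

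**Figure D3:**
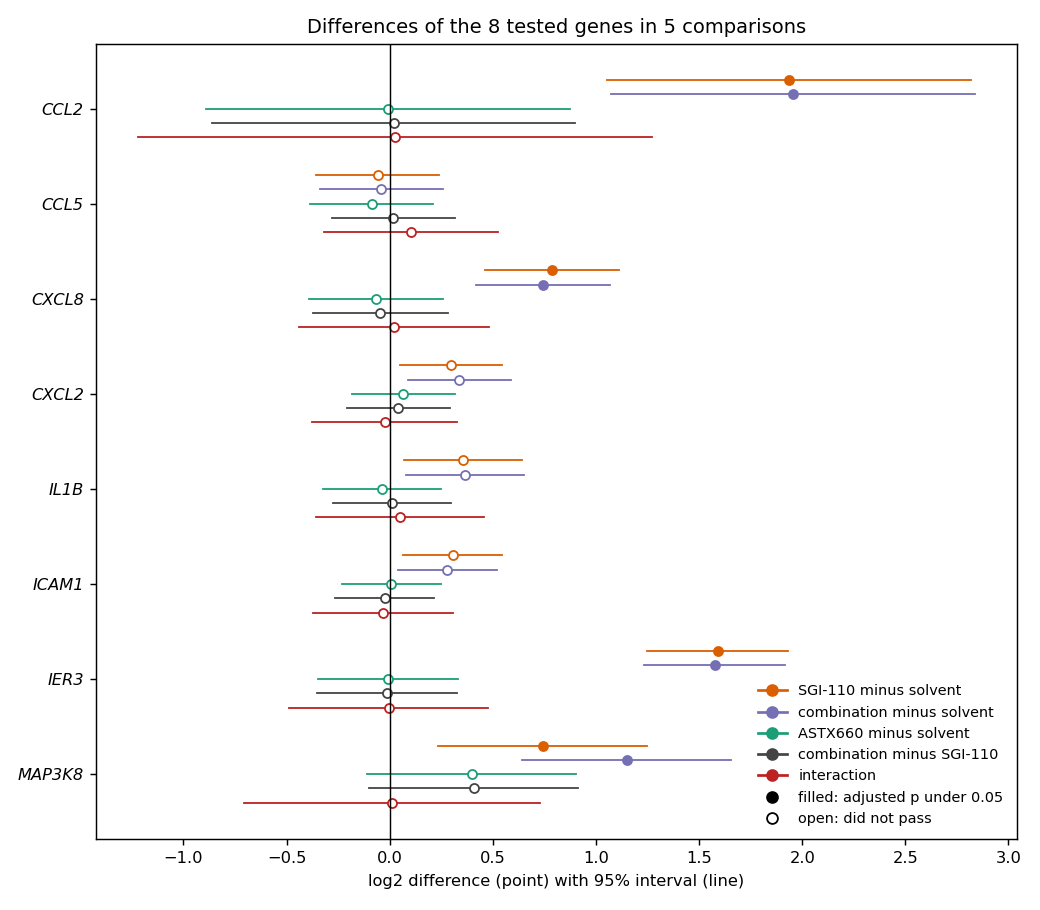
Log2 differences (x axis, points) with 95% intervals (lines) for the 8 tested genes (y axis) in 5 comparisons marked by colour, filled where the adjusted p was under 0.05. The SGI-110 and combination differences from solvent lie side by side for CCL2, CXCL8 and IER3, and the ASTX660, added ASTX660 and interaction values are open points.

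**Figure D4:**
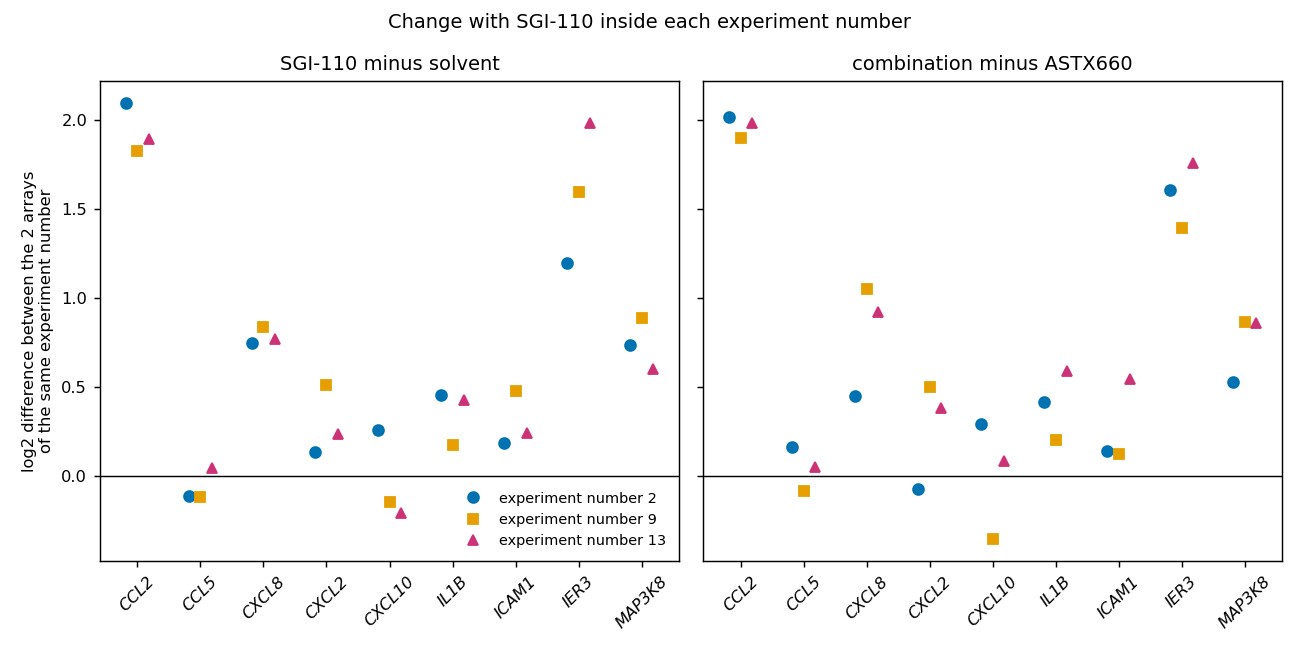
Log2 difference (y axis) between the SGI-110 and solvent arrays (left) and between the combination and ASTX660 arrays (right) of the same experiment number, 1 point per number, for 9 genes (x axis). CCL2 lies between 1.83 and 2.09 and IER3 between 1.20 and 1.98 at every number, and the CCL5 points lie on both sides of 0.

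Across the members the arrays numbered 13 did not deviate in 1 direction. They were above the mean of their group in all 4 groups for CCL2 (by 0.66 to 0.81), CCL5 (0.19 to 0.30), CXCL8 (0.11 to 0.22) and IL1B (0.05 to 0.33), and below it in all 4 for MAP3K8 (by -0.45 to -0.28). The source of these differences between experiment numbers was not tested. The tested genes outside the list that ran most like CCL2 over the 12 arrays were S100A4 (Pearson r = 0.997), ANTXR2 (0.993) and GLIPR1 (0.990). For CXCL8 they were HBEGF (0.981), OAS3 (0.979) and DUSP6 (0.971), and for IER3 they were CTSB (0.995), LGALS3 (0.989) and SERTAD1 (0.987). All arrays share the contrast between SGI-110 and no SGI-110, which alone makes such values high, and they were picked as the 3 highest of all tested genes, so they are descriptions.

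The chemokine genes lie in clusters, and the nearest coding neighbours were mostly dim. CCL7, next to CCL2, was below the array median on all 12 arrays (solvent mean 3.38, SGI-110 mean 3.35), and so were CCL4 and CCL18 beside CCL3, CXCL3 beside CXCL2 and CXCL11 beside CXCL10. CXCL6, next to CXCL8, went from 5.36 to 5.82, a difference of 0.46 that did not pass (limma adjusted p = 0.0593), and was 0.52 higher with the combination (adjusted p = 0.0317). MTHFD2L, the folate enzyme gene on the other side of CXCL2, fell by 0.33 (adjusted p = 0.0122). ART3, on the other side of CXCL10, was above the array median on all 12 arrays. It was 0.59 higher with SGI-110, which did not pass (limma adjusted p = 0.113). RDM1, beside CCL5, was also above it on all 12 arrays and differed by 0.03 (adjusted p = 0.876).

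Related genes are given as lists, whose counts stand beside 9.5% of all genes called higher and 5.9% lower with SGI-110, and 12.1% and 5.85% with the combination. The lists were chosen with earlier results of these data known, and no difference between lists was tested. Most other chemokine ligands were not above the array median. Of 32 with a probe set 21 exceeded it on no array, and 8 were tested, of which 1 was higher and 0 were lower with SGI-110 (2 and 1 with the block, median -0.00, and 0.00 over all genes). The one was CXCL1, a neutrophil attractant, with a rise of 0.81 (1.75-fold, limma adjusted p = 0.0155). With the combination CXCL1 (0.89, adjusted p = 0.0084) and CXCL6 were higher. Among chemokine receptors 3 of 11 were higher and 0 lower with SGI-110 (median 0.05). They were CXCR4, the receptor of CXCL12, by 0.29 (adjusted p = 0.00459), CCR1, a receptor of CCL3 and CCL5, by 0.65 (0.00589), and CX3CR1 by 1.25 (0.0365). CX3CR1 had a solvent mean of 4.23 and an ASTX660 mean of 4.39, both under the array medians, against 5.48 with SGI-110. It was above the array median on 7 of the 12 arrays. The filter thus favoured the groups in which it was high, and the count of 3 receptors is a description.

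Of 11 other tested cytokines of inflammation 5 were higher and 1 lower with SGI-110 (median 0.27): TNF rose by 0.65 (limma adjusted p = 0.000149), TNFSF13B, the B cell survival factor BAFF, by 0.72 (0.000736) and IL1RN, the natural antagonist of IL-1, by 0.69 (0.00194). Of 24 immediate early genes 12 were higher and 0 lower (median 0.34), with IER5 at 0.65 (3.39e-05), KLF10 at 0.65 (0.000537) and DUSP6, a phosphatase that switches off ERK, at 1.06 (0.0011). Of 18 other NF-kB response genes 6 were higher and 1 lower (median 0.17), with PTX3 at 1.61 (0.00115), the urokinase receptor gene PLAUR at 0.50 (0.00429) and TNFAIP2 at 0.37 (0.00681). PTX3 had a solvent mean of 3.66 and passed the filter on 6 arrays, like MAP3K8. Among the 12 immediate early genes, EGR1 (6 arrays, solvent mean 4.45) and DUSP5 (9 arrays, solvent mean 4.56) also had solvent means under the array medians. These 2 were picked out after their values were seen, and the list counts are descriptions.

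Among 12 leukocyte adhesion genes 4 were higher and 2 lower with SGI-110 (7 and 2 with the block, median 0.16). PECAM1 rose by 0.85 (limma adjusted p = 0.00156) and ITGB2, a chain of the integrin that binds ICAM1, by 0.54 (0.0082), while ITGA4 fell by 0.41 (0.00087). Of 23 genes of IL-1 processing and IL-1 or MAP3K8 signalling 2 were higher and 0 lower (5 and 0 with the block, median 0.07), a share near that of all genes. These were NLRC4, an inflammasome sensor (0.61, adjusted p = 0.00637), and MAP2K2, a kinase that MAP3K8 activates (0.22, 0.0363). With the combination the counts higher and lower were 5 and 0 of 11 cytokines, 13 and 0 of 24 immediate early genes, 7 and 1 of 18 NF-kB response genes, 4 and 1 of 12 adhesion genes and 3 and 0 of 23 IL-1 signalling genes. EGR1, DUSP5 and PTX3 are again among those called higher, so these counts are descriptions too. ASTX660 alone and ASTX660 added to SGI-110 gave 0 calls in each of these 7 lists (limma). One gene in them had an unadjusted p under 0.05 in each comparison, an NF-kB response gene and a cytokine respectively.

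**Figure D5:**
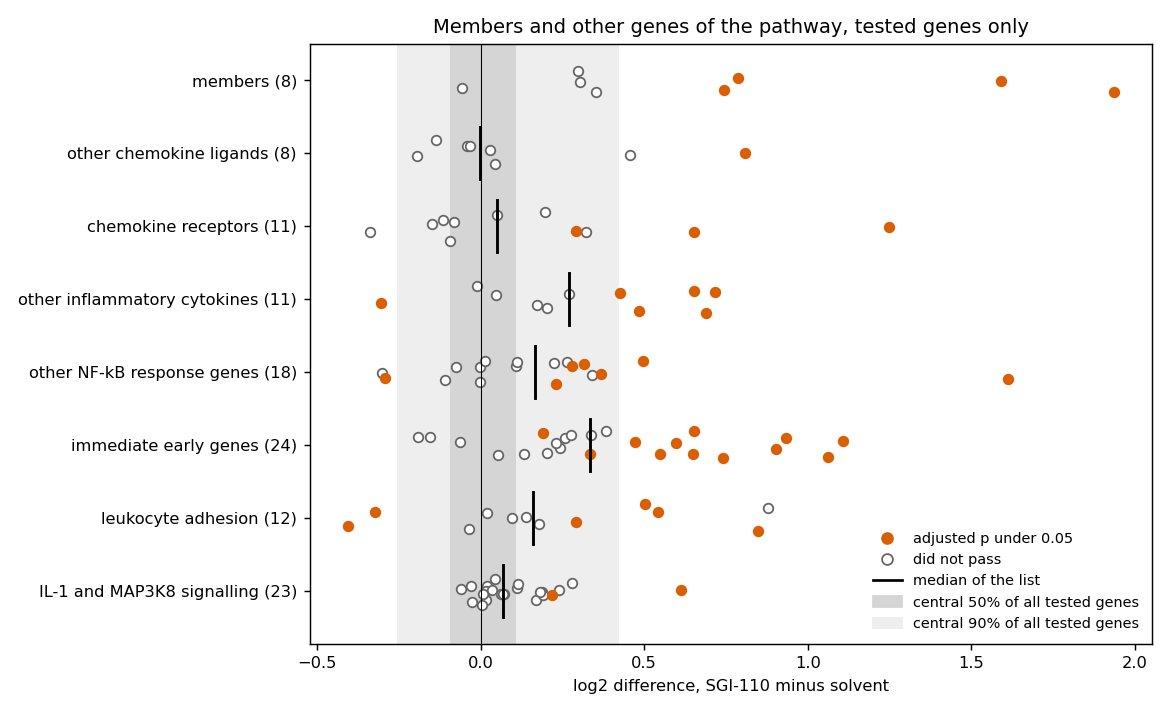
Log2 difference between SGI-110 and solvent (x axis) for the tested members and for 7 lists of related genes without the members (y axis, number tested in brackets), filled where the adjusted p was under 0.05, with a black line at each list's median and grey bands for the central share of all tested genes. All 12 filled immediate early genes and 5 of 6 filled cytokines lie to the right of 0, and other chemokine ligands have 1 filled point.

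The labelled cell type was checked against its markers. Of 11 measured myelomonocytic markers 9 were above the array median on all 12 arrays, MPO, LYZ and ELANE among them, while CD14, a marker of mature monocytes, was below it on all. The mean log2 level over the 11 markers was 9.02 to 9.23 on solvent arrays, 9.30 to 9.44 with SGI-110, 9.08 to 9.15 with ASTX660 and 9.30 to 9.48 with the combination. The mean was thus higher on the arrays with SGI-110 than on those without it. With SGI-110 4 of 10 tested markers were higher and 0 lower (5 and 1 with the block), where 9.5% of all genes were higher. By adjusted p the first 3 were PTPRC (0.69), LYZ (0.24) and CSF1R (0.52). ITGAM had the largest difference (0.88) and did not pass, and MPO (-0.06) and ELANE (-0.07) had values below 0. Over 13 markers of other cell types the mean was 5.07 to 5.12, 5.18 to 5.24, 4.81 to 5.05 and 5.10 to 5.23 in the same order. Here too SGI-110 arrays were above solvent arrays and combination arrays above ASTX660 arrays, while the combination and solvent ranges overlapped. Of these 13 markers 8 were above the array median on all 12 arrays, COL1A1 (solvent mean 7.73), KRT18 (6.20), CD79A (6.03) and KRT8 (5.97) among them. EPCAM, CDH5 and MS4A1, 3 of the 13, were above it on none. KRT18 rose by 0.83 (limma adjusted p = 0.0135), 1 of 9 tested. The part of these markers in the members' changes was not tested, and in RNA from whole cultures fewer cells of a type and less RNA per cell cannot be told apart.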

How the data were processed

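Total RNA of ML-2 cells was labelled with biotin and measured on 12 Affymetrix arrays. The authors deposited RMA log2 intensities, per the labels' processing notes, which name affy and RMA without a version. They held 54675 probe sets, ranged from 2.08 to 14.38 and were used as they stood. The sources do not say whether all arrays were normalized together.

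Genes were named from the platform annotation, with symbols updated by gene identifier. Probe sets with several symbols (1801) were set aside. Each gene was read from its probe set of highest mean over 12 arrays. It was tested when above the array median on at least 3, which kept 12689 of 19775 genes. limma 3.58.1 in R 4.3.3 fitted 1 mean per group with an intensity trend, Benjamini-Hochberg adjustment over all genes and a threshold of 0.05. The same model was fitted to 23660 probe sets. The script was tested on simulated data. A group size of 3 arrays limits the precision (median SE 0.085).

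The experiment number was a block only as an alternative. Deviations of same-numbered arrays correlated at 0.321 or above for SGI-110 or ASTX660 with solvent, 0.15 or above for the combination with solvent and 0.208 or above for the combination with SGI-110. For the combination with ASTX660 number 2 gave 0.057, so blocked values of that comparison are in the closing section only.

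Named genes were all members, up to 3 called genes per list and comparison with the smallest adjusted p, the 3 genes most like CCL2, CXCL8 and IER3, and cluster neighbours. Members and lists were chosen with earlier results of these data known. Alternatives were scaling, filters, choice of probe set, moderation, array weights and left-out arrays. The arrays of a whole experiment number left out, the motif GGNNNTTCC and the fit that includes shared probe sets were chosen after seeing the data.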

Additional observations from a re-analysis of the deposited data

Results flagged for a closer look

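Probe set 205114_s_at is annotated to CCL3 and 2 near-identical copies, so its signal was set aside and cannot be given to 1 gene. It was higher with SGI-110 than with solvent. On arrays 2, 9 and 13 it read 5.09, 4.89 and 5.45 in solvent, 6.46, 5.81 and 6.95 in SGI-110, 5.19, 4.92 and 5.15 in ASTX660 and 6.30, 6.09 and 7.005 in the combination. All 6 arrays with SGI-110 were above all 6 without it. In a limma fit over 24805 probe sets that included shared ones the difference from solvent was 1.27 (SE 0.259, 2.40-fold, adjusted p = 0.00647) with SGI-110, -0.06 (adjusted p = 0.97) with ASTX660 and 1.32 (adjusted p = 0.00419) with the combination.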

How the results depend on the processing

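With the experiment number as a replicate block, 7 members were called with SGI-110 and 7 with the combination against solvent, where 4 and 4 were called without it, and 10 and 8 member probe sets where 5 and 5 were. In the combination against ASTX660 the block called 6 members, against 4, where it called 26.6% of all genes. The SE of the CCL2 interaction was 0.581 without the block and 0.114 with it. Leaving out 1 array, or the 4 arrays of 1 number, gave 3 to 5 members with SGI-110, 4 to 5 with the combination against solvent, 3 to 6 against ASTX660 (814 to 1529, 980 to 1984 and 914 to 1992 of all genes, where the full fits called 1955, 2275 and 2038), and 0 in the ASTX660, added ASTX660 and interaction comparisons. CCL2, CXCL8 and IER3 kept their calls in these 3 SGI-110 comparisons under each of the 15 scaling, filter, probe set, moderation, weight, block and single-array alternatives, and CCL2 lost them in all 3 without the arrays numbered 2 (adjusted p = 0.116, 0.117 and 0.101). Of 906 refits of 48 member results 0 reversed a called value, 22 lost a call and 26 gained one, and 118 turned the sign of a value that was never called. For MAP3K8 the probe set left the test under the stricter filter, so it has no value there. Of 672 refits of list counts 47 moved them by over 1.5 times, and with SGI-110 the called genes ranged from 0 to 3 other chemokine ligands, 2 to 5 receptors, 3 to 6 cytokines, 4 to 10 NF-kB response genes, 9 to 17 immediate early genes, 4 to 9 adhesion genes and 1 to 5 IL-1 signalling genes. Members near the array median (MAP3K8, the dimmest ICAM1 probe set) or below it (CXCL10) are limited by signal over background. So is the IL1B probe set 39402_at, with means of 4.93 in solvent and 4.77 in ASTX660.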
